A study of Mus musculus with 142 samples.

Results

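Oligodendrocyte precursor cells (OPCs) from the dorsal telencephalon of K27M mice were compared between day 1 and day 2 of differentiation in culture. The members were all libraries of K27M dorsal telencephalon OPC cultures taken at these 2 days, 9 wells at day 1 and 9 at day 2, or 18 RNA-seq libraries of a series that holds 124 others. They came from 3 cultures, numbered 38, 41 and 42, with 3 wells per culture and day. The other libraries used for comparison were the 18 wells of control telencephalon and the 17 wells of K27M brainstem at the same days.

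K27M stands for AMGFAP-Cre;K27M mice, as the labels spell the line (hGFAP-Cre in the study's methods), in which Cre recombinase under the human GFAP promoter switches on a lysine-to-methionine change in histone H3.3, knocked in at the endogenous H3f3a gene. Cre is active in neural stem and progenitor cells, so every cell type that descends from them can carry the change. Cortex, corpus callosum and hippocampus of litters at postnatal days 5 to 7 were pooled by region and genotype, endothelial cells and microglia were depleted on a BSL1 lectin dish, and OPCs were captured on a dish coated with antibody to PDGFRa. The cells were grown with PDGF, neurotrophin-3, CNTF and forskolin, and differentiation was begun by removing PDGF and neurotrophin-3 and adding thyroid hormone. Each culture is a pool of animals, and its wells share those cells, so tests on wells do not treat the culture as the unit. Their p-values measure the spread between wells, in which unequal changes of the cultures are included. Control telencephalon wells came from littermates labelled as control and had the same medium changes. The study's methods, in their single-cell part, describe littermate controls as animals without Cre, in which a stop cassette leaves H3f3a expressed from a single allele. K27M brainstem wells came from the brainstems of K27M mice, handled in the same way.

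OPCs divide under PDGF and, when the mitogen is withdrawn, leave the cell cycle, pass through a committed stage marked by the receptor Gpr17, extend processes and switch on the genes of myelin, the membrane sheath that insulates axons. Thyroid hormone acts through nuclear receptors and is used to start this programme in culture. Myelin is rich in cholesterol and galactolipids, so enzymes of both routes are part of the programme along with the myelin proteins.

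Sequencing gave 26.6 to 84.7 M assigned read pairs per well, with medians of 38.4 M read pairs at day 1 and 39.4 M read pairs at day 2. H3f3a, the gene that carries the change, had 485 to 614 CPM (estimated read counts scaled to library size) in the day 1 wells and 575 to 737 in the day 2 wells, against 260 to 349 and 303 to 442 in control telencephalon. The reads per gene do not show the changed codon. Prm1, whose promoter is part of the Cre construct, was at 34.2 CPM or more in every K27M well of both regions and at no more than 0.0270 CPM in the control telencephalon wells, so the libraries matched their labels for Cre. The lineage factors Olig1, Olig2 and Sox10 summed to 1368 to 1967 CPM at day 1 and 1028 to 1587 CPM at day 2. The passage number of the wells also differed between the days in parts of every culture. In culture 41 all day 1 wells were at passage 1 and all day 2 wells at passage 2, so that passage and day cannot be told apart there. Only 6 wells could be compared at the same passage, 4 of culture 38 at passage 4 and 2 of culture 42 at passage 1. Of these only 2 were day 2 wells, 1 of each culture, so calls in this setting rest on few wells. The 2 passage 1 wells of culture 42 stood apart, with a summed level of 5 astrocyte markers of 424 CPM at day 1 (51.4 to 160 in the other 8 wells) and 1245 CPM at day 2 (64.3 to 148). Their summed microglia markers were 2.59 and 2.19 CPM, and their summed fibroblast markers 16.9 and 17.4 CPM. In the other wells these sums stayed at or below 0.286 and 5.29 CPM.

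Of 16375 genes tested with edgeR's quasi-likelihood test and culture as a block, 4365 were higher at day 2 (26.7% of those tested) and 4762 were lower (29.1%, or 2889 genes without culture 38) at an adjusted p under 0.05. Large changes were mostly increases. At least 2-fold changes were called for 702 genes that rose and 307 that fell. The change had the same sign in each of the 3 cultures for 4036 of the higher and 4035 of the lower genes. When the wells of each culture and day were summed first, so that the culture was the unit, 2605 of 21670 genes were higher (12%) and 1169 were lower (5.39%). For 2109 genes (12.9% of those tested) the 9 wells of day 1 and the 9 wells of day 2 did not overlap. The bulk measurement cannot tell apart fewer cells of a type and less RNA per cell.

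The steepest rises were in genes of the maturing oligodendrocyte that were nearly silent at day 1. Casr, the calcium-sensing receptor, had the largest fold change among the genes chosen for size, reproducibility and level. Its day 1 wells lay between 0 and 0.175 CPM (median 0.0397) and its day 2 wells between 4.93 and 71.4 CPM (median 29.6). Every day 2 well was above every day 1 well, although the day 1 wells held only 23 reads in all against 10025 at day 2, so the log2 fold change of 9.01 ± 0.59 (SE, adjusted p = 7.01e-09) has a loosely measured starting level. Mobp, a structural protein of compact myelin, went from 0.286, 0.574 and 0.810 CPM (lowest, median and highest well) to 30.3, 142.1 and 462 CPM, a log2 change of 8.04. The same near-absence at day 1 was seen for Tmem125, with 38 reads at day 1 and 5171 at day 2 (log2 change 7.31), and for the tight junction protein Cldn14 (25 and 1918 reads, 6.57). The lysophosphatidic acid receptor Lpar1 rose from a median of 1.88 CPM to 114 CPM (log2 change 5.79 ± 0.34). S1pr5, a receptor for sphingosine 1-phosphate, and Hapln2, a matrix link protein of nodes of Ranvier, rose by 5.17 and 4.95 on the log2 scale. For all 7 of these genes the wells of the 2 days did not overlap, against 12.9% of all genes tested. They were chosen for large, reproducible changes in these same wells, so the gap adds no support of its own.

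The myelin proteins rose together in all 3 cultures. Of 41 listed genes of mature oligodendrocytes and myelin 38 were tested, and 31 rose and 3 fell, against 26.7% and 29.1% of all genes. The median log2 change of the tested members was 1.48 (−0.04 over all genes tested), and it was 1.60, 1.31 and 1.19 in cultures 38, 41 and 42. The wells of the 2 days did not overlap for 26 of the 38 members, against 12.9% of all genes tested. The 3 that fell were Pmp22 (log2 change −0.63), Ninj2 (−0.59) and Nkain1 (−0.53).

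Mbp, the cytoplasmic protein that compacts myelin, ranged from 189 to 409 CPM at day 1 (median 225) and from 1236 to 7865 CPM at day 2 (median 3887). Mag, the adhesion protein of the inner myelin layer, went from 39.7, 50.8 and 131 CPM to 347, 913 and 1883 CPM. For both the lowest day 2 well was above the highest day 1 well, while the day 2 wells were spread much more widely than those of day 1. The log2 changes were 3.79 ± 0.30 for Mbp (adjusted p = 3.71e-08) and 3.66 ± 0.30 for Mag (6.56e-08). Mog, a glycoprotein of the outermost lamella and a late myelin gene, was still low at day 2, with 26.5 to 69.5 CPM against 2.51 to 10.1 at day 1 (log2 change 2.94 ± 0.25). Cnp, the phosphodiesterase of non-compact myelin and an early gene, was already at 955 to 1634 CPM at day 1 and reached 2275 to 4436 CPM.

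On a scale corrected for transcript length (TPM, in which each transcript's reads are divided by its effective length), the order of these levels changed between the days. At day 1 the median was 320 TPM for Cnp, 70.3 for Mbp and 17.5 for Mag. At day 2 Mbp had a median of 1086 TPM, Cnp 587 and Mag 277. The day 2 range of Mbp (419 to 2055 TPM) held all wells of Cnp (544 to 814 TPM). Mog and Mobp stayed far below, at medians of 11.4 and 32.2 TPM.

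**Figure D1:**
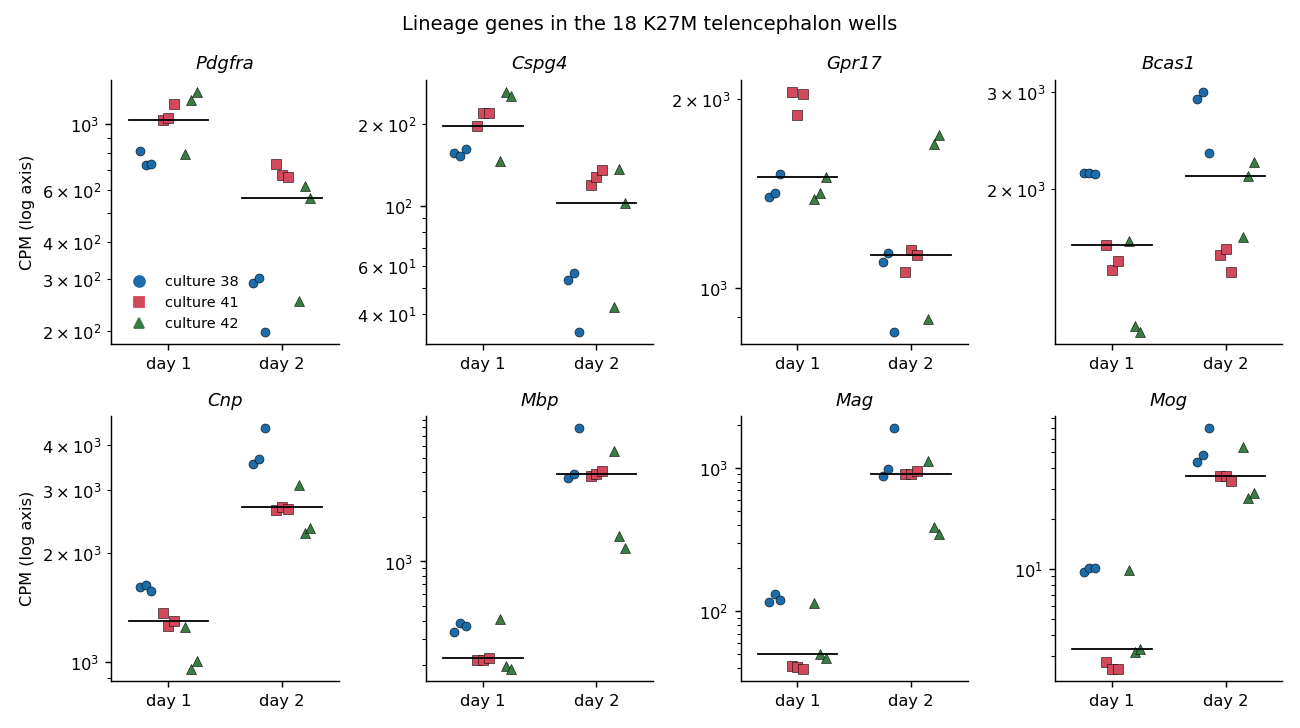
CPM on a log axis of 8 lineage genes in each of the 9 wells at day 1 and the 9 wells at day 2, with symbols for cultures 38, 41 and 42. The horizontal line marks the median of the wells. Cnp, Mbp, Mag, Mog and Cspg4 separate completely between the days, whereas the wells of Pdgfra, Gpr17 and Bcas1 overlap.

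Within culture 42 at day 2 the passage 1 well was ahead of the passage 3 wells, with a mean log2 CPM over the myelin list of 5.56 against 4.52 and 4.35. In culture 38 the passage 4 well had 6.00 and the passage 3 wells 5.03 and 5.19. The 3 wells of culture 41 lay between 5.16 and 5.20. The part of passage in these differences was not tested.

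Genes of the committed precursor and newly formed oligodendrocyte moved in both directions. Of 25 listed, 19 rose and 4 fell, and the median log2 change was 1.04. Tmem163, a zinc transporter, rose from 14.1, 19.1 and 40.9 CPM to 91.7, 146 and 247 CPM (log2 change 2.69 ± 0.20, adjusted p = 2.36e-08). No well of day 1 reached the day 2 range. The small GTPase Rras2 rose by 2.23 and the melanin enzyme gene Dct by 2.49 on the log2 scale. Enpp6, a choline phosphodiesterase of newly formed oligodendrocytes, rose by 1.53.

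Gpr17, the receptor that marks the committed stage, had its highest mean at day 1 among the 4 days measured. Its wells lay between 1387 and 2053 CPM at day 1 (median 1501) and between 850 and 1753 CPM at day 2 (median 1130). The ranges overlapped, and the fall of 0.43 ± 0.13 on the log2 scale (adjusted p = 0.0103) was not called on culture sums (adjusted p = 0.566). Its culture means fell from 1444 to 1029 CPM in culture 38 and from 1992 to 1113 in culture 41, while culture 42 was at 1434 and 1448. Bcas1, a cytoplasmic protein of early myelinating cells, rose by 0.34 ± 0.10 (adjusted p = 0.0089 on wells, 0.235 on culture sums), with no difference between the days in culture 41. The Src-family kinase Fyn rose by 0.57 ± 0.09 on the log2 scale, from a median of 512 CPM to 778 CPM.

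Most listed enzymes of the galactolipids of myelin rose. Among 24 genes of galactolipid and very long chain lipid synthesis 20 rose and none fell, with a median log2 change of 0.48. Ugt8a, which makes galactosylceramide, went from 348, 420 and 589 CPM to 1005, 1348 and 2033 CPM. The days did not overlap for this gene, and its log2 change was 1.62 ± 0.09 (adjusted p = 1.48e-09). The fatty acid elongases Elovl7 and Elovl1 rose by 1.57 and 0.99, and the ceramide desaturase Degs1 rose by 1.01.

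In cholesterol synthesis most members were not called. Of 31 listed genes 30 were tested, 10 rose and 1 fell, and the median log2 change was 0.24. It was 0.11 in culture 38, −0.09 in culture 41 and 0.69 in culture 42, and −0.01 in the 6 wells of matched passage. Genes of late steps of the route that rose had log2 changes of 0.97 for the sterol isomerase Ebp and 0.45 for the desaturase Sc5d. The gene that fell was Mylip (−0.66), which targets the LDL receptor for degradation.

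Thyroid hormone is the added signal of this medium, and 7 of 16 tested genes of its pathway rose and 2 fell. The median log2 change was 0.24, and −0.02 without culture 38. Thra, the main thyroid hormone receptor of the brain, had 131 to 202 CPM at day 1 (median 142.4) and 332 to 590 CPM at day 2 (median 386). Its direct target Klf9 went from 20.2, 23.96 and 38.4 CPM to 51.2, 58.5 and 94.9 CPM. Neither gene had a day 1 well in the day 2 range. Thra rose by 1.42 ± 0.07 (adjusted p = 5.52e-10) and Klf9 by 1.30 ± 0.12 (adjusted p = 1.98e-07), with log2 differences of Klf9 between 1.19 and 1.38 in the 3 cultures. The corepressor Hr, another known target, rose by 0.76.

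Among 43 transcription factors of the lineage 18 rose (41.9%) and 12 fell (27.9%), against 26.7% and 29.1% of all genes. On culture sums 9 rose and 5 fell. Myrf, the regulator that switches on myelin genes, was present from day 1, with 77.7 to 182 CPM (median 130) and then 148 to 271 CPM (median 218). The day 2 range began inside the day 1 range. The log2 change of 0.78 ± 0.14 (adjusted p = 0.000247) was smaller in culture 41 (0.21) than in cultures 38 (0.70) and 42 (1.42), and it was not called on culture sums (adjusted p = 0.223). The zinc finger factor St18 rose by 1.88, the homeobox factor Nkx6-2 by 1.84 and Zfp536 by 1.27.

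Most OPC genes fell. Of 25 listed, 17 fell and 2 rose, with a median log2 change of −0.67, and the median was −0.96, −0.65 and −0.29 in cultures 38, 41 and 42. Without culture 38, and likewise without culture 41, 10 fell. Pdgfra, the PDGF receptor used to capture the cells, ranged from 727 to 1285 CPM at day 1 (median 1029) and from 198 to 733 CPM at day 2 (median 561). Cspg4, the NG2 proteoglycan, went from 145, 196 and 262 CPM to 34.3, 102 and 136 CPM. The highest day 2 well of Pdgfra was just above the lowest day 1 well, and Cspg4 did not overlap. The log2 changes were −1.11 ± 0.17 for Pdgfra (adjusted p = 3.72e-05) and −1.21 ± 0.20 for Cspg4 (adjusted p = 9.89e-05). Pcdh15 and Brinp3 fell by 1.19 and 1.08. Both genes that rose, Matn4 (0.39) and Luzp2 (0.20), changed little.

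The 8 largest decreases among genes chosen for size, reproducibility and level were smaller than the largest rises. Dll3, a Notch ligand, went from 45.2, 72.2 and 91.7 CPM to 5.72, 26.5 and 61.8 CPM, with a log2 change of −1.44 ± 0.33 (adjusted p = 0.00149). Its days overlapped, and without culture 38 it was not called (adjusted p = 0.0507). Among them were also the lipase gene Pnlip (−1.83), the adaptor Plekha2 (−1.78), the basement membrane collagen Col18a1 (−1.62), Tmem255b (−1.61), the motor protein Myo5b (−1.48) and the cell cycle regulator Rgcc (−1.36).

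The genes of cell division did not change alike in the 3 cultures. Over the 18 wells 29 of 40 listed cell cycle genes fell, none rose, and the median log2 change was −0.79. In cultures 38 and 42, 39 of the 40 were lower at day 2 in each, with medians of −1.53 and −1.26. In culture 41, 34 of the 40 were higher, with a median of 0.53. A test of whether the change differed among the cultures was passed by 39 of the 40 members (2254 of 16375 genes, 13.8%). The count of lower members was 39 without culture 41, 5 without culture 38, 6 without culture 42 and 18 without the 2 passage 1 wells of culture 42.

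Mki67, the proliferation marker, had 129 to 479 CPM at day 1 (median 368) and 122 to 286 CPM at day 2 (median 197). The culture means went from 398 to 125 CPM in culture 38 and from 434 to 184 CPM in culture 42, but from 138 to 268 CPM in culture 41. Within each culture the wells of the 2 days did not overlap, with day 2 lower in cultures 38 and 42 and higher in culture 41. The log2 change over all cultures was −0.68 ± 0.32 (adjusted p = 0.0783). Ccnb1, the cyclin of mitotic entry, had the same pattern, with culture means of 137 and 27.7 CPM, 50.8 and 94.6 CPM, and 182 and 62.6 CPM for cultures 38, 41 and 42. Its change of −1.03 ± 0.39 (adjusted p = 0.0321) was not called on culture sums (0.174). In the 6 wells of matched passage, which hold no well of culture 41, 39 of the 40 members fell and 1 rose.

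Ccnd1, the cyclin that responds to growth factors, fell in every culture. It went from 110, 148 and 165 CPM to 44.9, 64.4 and 106 CPM, the days did not overlap, and the log2 change was −1.11 ± 0.11 (adjusted p = 3.35e-07). Cdk2, the kinase of S phase entry, fell by 0.91 over all wells, with a difference of −0.02 in culture 41. Lmnb1, a nuclear lamin, fell by 0.52 (adjusted p = 0.000719), and its difference was also near 0 in culture 41. The 23 replication-dependent histones, whose near-identical copies make the count of each gene uncertain, followed the cultures as well. Their medians were −1.21, 1.01 and −1.23 in cultures 38, 41 and 42. None was called over the 18 wells with edgeR at an adjusted p under 0.05, 1 was lower at an unadjusted p under 0.05, DESeq2 called 1 lower, and without culture 41 22 were called lower.

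**Figure D2:**
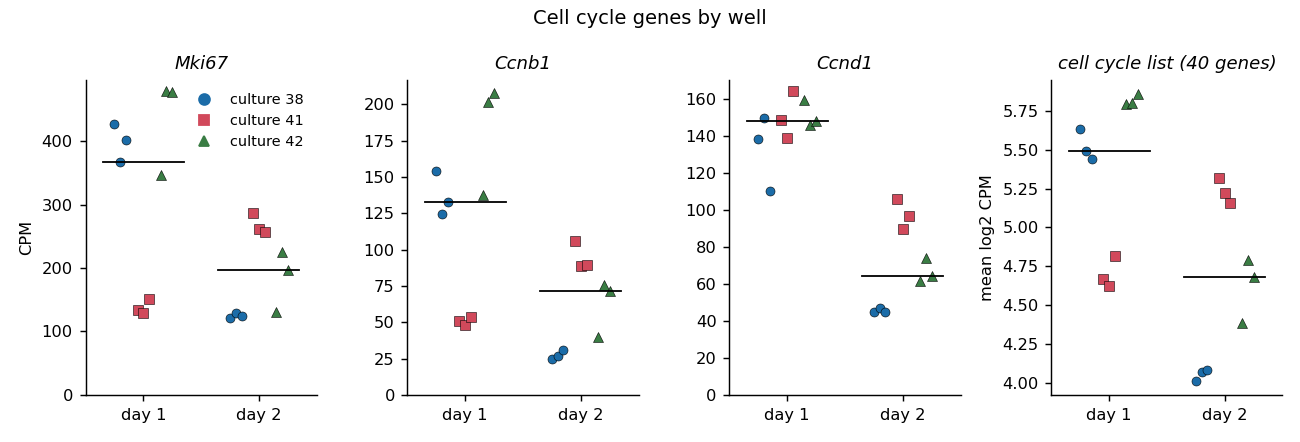
CPM of Mki67, Ccnb1 and Ccnd1, and the mean log2 CPM of the 40 cell cycle genes, in each well at day 1 and day 2, with symbols for the cultures and a horizontal line at the median of the wells. Culture 41 starts lowest and ends highest for Mki67, Ccnb1 and the list, and Ccnd1 falls in all 3 cultures.

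Because Mki67 and Ccnb1 moved together in opposite directions across the cultures, the sequence just before the start of each is shown, as given by RefSeq for GRCm38.p6. Mki67 lies on the minus strand and the stretch is chr7:135716380-135716629. Ccnb1 also lies on the minus strand, and the stretch is chr13:100786487-100786736. Capitals mark the CCAAT box (CCAAT or, on the other strand, ATTGG) and the cell cycle homology region (TTTGAA or TTCGAA, or their reverse complements), elements known from genes of mitosis.
Mki67: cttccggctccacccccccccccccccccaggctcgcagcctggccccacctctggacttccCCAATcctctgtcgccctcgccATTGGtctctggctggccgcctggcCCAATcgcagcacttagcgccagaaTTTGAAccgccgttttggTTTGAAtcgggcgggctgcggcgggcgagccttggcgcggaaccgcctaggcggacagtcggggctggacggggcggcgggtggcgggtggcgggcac
Ccnb1: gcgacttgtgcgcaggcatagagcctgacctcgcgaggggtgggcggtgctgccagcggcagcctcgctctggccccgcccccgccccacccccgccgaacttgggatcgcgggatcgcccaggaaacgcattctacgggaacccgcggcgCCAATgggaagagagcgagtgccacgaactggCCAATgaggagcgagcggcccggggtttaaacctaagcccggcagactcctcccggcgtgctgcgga
The Mki67 stretch held 3 CCAAT boxes and 2 matches to the cell cycle homology region, and the Ccnb1 stretch held 2 CCAAT boxes. Across all 32851 RefSeq promoters of 300 bases (250 before and 50 after the start), 37.4% held CCAAT and 19.2% held the cell cycle homology region on either strand. A promoter sequence was found for 31 of the 40 cell cycle genes, under the 80% needed for a share by list, so none was computed.

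Most ribosome biogenesis genes fell. Of 23 listed, 20 fell and none rose, with a median log2 change of −0.37. Without culture 41, 16 fell and 1 rose. The dyskerin gene Dkc1 fell by 0.73, the RNA polymerase I subunit Polr1b by 0.62, the nucleolar GTPase Gnl3 by 0.61 and the small nucleolar ribonucleoprotein Nop58 by 0.50. Of 21 tested genes of the integrated stress and unfolded protein responses, 8 fell (38.1%, or 5 genes without culture 38) and 3 rose (14.3%). Over all genes 29.1% fell and 26.7% rose. Those that fell included the amino acid transporter Slc7a5 (−0.94) and the biosynthetic enzymes Phgdh (−0.63) and Asns (−0.59), while the factor Ddit3 rose by 0.62. Immediate early genes, which respond within minutes to stimulation, had 9 members that fell and 1 that rose among 19 tested. The 9 became 5 without culture 38 and 4 without culture 41. On culture sums none of 22 was called in either direction with edgeR, and 4 were lower at an unadjusted p under 0.05, while DESeq2 on the wells called 9 lower. Egr1 was uneven among them, with 29.1 to 58.1 CPM at day 1 and 3.41 to 82.2 CPM at day 2. Its day 2 wells were low in cultures 38 and 41 and high in the 2 passage 3 wells of culture 42 (log2 change −1.39 ± 0.51, adjusted p = 0.0278).

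Genes of the cytoskeleton and process outgrowth mostly rose, 21 of 38 tested against 4 that fell. Tppp, which nucleates microtubules in oligodendrocyte processes, went from 36.9, 47.4 and 89.8 CPM to 311, 1120 and 2082 CPM. The days did not overlap (log2 change 4.09 ± 0.31, adjusted p = 2.74e-08). The septin Sept4 rose by 2.66 and the microtubule-binding proteins Map7 and Map1b by 2.31 and 1.89.

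Axon guidance genes were divided, with 13 higher (33.3%) and 16 lower (41.0%) of 39 tested, against 26.7% and 29.1% of all genes. On culture sums 11 of 41 were higher and 7 lower. The rises were steeper in the genes named by size, with log2 changes of 2.95 for the ephrin Efnb3, 2.83 for the netrin receptor Unc5b, 2.71 for the ephrin receptor Ephb1 and 2.68 for the semaphorin Sema3e. Among 40 ion channels and neurotransmitter receptors 10 rose and 17 fell (11 without culture 38), against 26.7% and 29.1% of all genes. On culture sums 8 rose and 5 fell. The glutamate receptor Grm7 rose from a median of 12.9 CPM to 137 CPM, the pacemaker channel Hcn2 rose by 2.28 on the log2 scale and the potassium channel Kcna1 by 1.47, while the nicotinic receptor subunit Chrna4 fell by 1.25. Integrins and laminins included 6 that rose and 7 that fell of 20 tested, against the same shares of all genes. On culture sums 4 of 24 rose and 3 fell. Itga2 and Itgb3 rose by 2.32 and 1.08, and Itga4 and Itga9 fell by 1.14 and 1.09.

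The signalling pathways moved in both directions, and their balance changed with the wells and the unit used. In the growth factor list 3 of 31 rose (9.68%) and 11 fell (35.5%), against 26.7% and 29.1% of all genes. On culture sums 2 of 34 rose and 1 fell, and in the wells of matched passage 8 rose and 8 fell. Fgfr2, an FGF receptor, went from 5.85, 7.25 and 14.01 CPM to 37.8, 107 and 193 CPM without overlap (log2 change 3.50 ± 0.26, adjusted p = 1.89e-08). The ligand Pdgfa rose by 0.98 and the feedback inhibitor Spry1 fell by 0.65. In the Wnt pathway 8 of 36 rose (22.2%) and 13 fell (36.1%), or 4 and 5 of 45 on culture sums, and the ligand Wnt3 went from 0.162, 0.261 and 0.436 CPM to 1.68, 5.50 and 11.7 CPM. Its wells did not overlap, at a low level throughout. The receptors Fzd8 and Fzd5 rose by 1.87 and 1.52, and the secreted antagonist Frzb fell by 0.96.

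In the BMP pathway 7 of 26 rose (26.9%) and 9 fell (34.6%). The counts were 4 and 5 without culture 38, 4 and 4 without culture 41, 8 and 6 of 30 in the wells of matched passage, and 3 and 2 of 32 on culture sums. In the TGF-beta pathway 5 of 17 rose (29.4%) and 8 fell (47.1%). In the wells of matched passage, of which only 2 were day 2 wells, 8 were higher and 3 lower of 20. On culture sums 4 of 26 rose and 3 fell. Without culture 38 4 rose and 5 fell. Smad7, an inhibitor common to both, rose by 1.77. The ubiquitin ligase Smurf1 (1.18) and the target Id1 (1.24) rose, and the antagonist Chrd fell by 0.96. Tgfb2 and Tgfb3 rose by 2.30 and 1.04, and Ltbp4, which holds the latent ligand, fell by 0.86. In the Notch pathway 4 of 26 rose (15.4%) and 11 fell (42.3%). The 11 became 3 without culture 38 and 6 without culture 41, and 2 of 29 fell on culture sums. The ligands Dll3 and Dll1 (−0.64) were among those that fell, while Rbpj, the nuclear effector, rose by 0.59.

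Among 20 tested genes of PRC2, H3.3 and the H3K27 demethylases 3 rose and 5 fell, against 26.7% and 29.1% of all genes. On culture sums none of 20 was called with edgeR, and 2 were higher and 3 lower at an unadjusted p under 0.05. H3f3b, the second gene for H3.3, was at 486 to 598 CPM at day 1 and 486 to 562 CPM at day 2 (log2 change −0.02, adjusted p = 0.71), and H3f3a rose by 0.19 ± 0.05 (adjusted p = 0.00661 on wells, 0.129 on culture sums). Prm1 fell by 0.34 (adjusted p = 0.00709 on wells, 0.293 on culture sums). Of 14 tested genes of telencephalic identity 5 fell (35.7%) and none rose. On culture sums none of 18 was called with edgeR, and 2 were lower at an unadjusted p under 0.05. Among 19 CDK inhibitors and p53 targets 3 rose (15.8%) and 5 fell (26.3%), and the stress gene Gadd45a rose by 0.80. Interferon response genes had 2 of 8 higher and 4 lower, with falls of 1.49 for Rsad2, 1.14 for Ifit2 and 0.83 for Ddx58. Of the 13 mitochondrially encoded genes 2 rose and none fell.

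Markers of other cell types were called in both directions. Of 15 tested astrocyte genes 2 rose and 1 fell, and without the 2 passage 1 wells of culture 42 2 rose and 4 fell. Sparcl1 rose by 1.63 ± 0.51 (adjusted p = 0.013), with day 2 wells between 9.07 and 148 CPM, of which the highest was the passage 1 well of culture 42. Of 15 tested neuronal genes 2 rose (13.3%) and 7 fell (46.7%), and 1 of 17 rose and 1 fell on culture sums, with a rise of 1.91 for the RNA-binding protein Elavl3 and a fall of 0.51 for Map2. Only 3 of 14 microglial and 6 of 16 vascular and fibroblast genes passed the filter on low counts, with 1 microglial gene higher, 1 lower and 1 vascular and fibroblast gene higher. The last was Postn, a matrix protein, which was at 0.198 to 1.095 CPM at day 1 and 1.70 to 8.52 CPM at day 2 (log2 change 3.10). Of 5 tested Schwann cell genes none rose and 3 fell, and on culture sums none of 8 was called with edgeR while 1 was lower at an unadjusted p under 0.05.

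**Figure D3:**
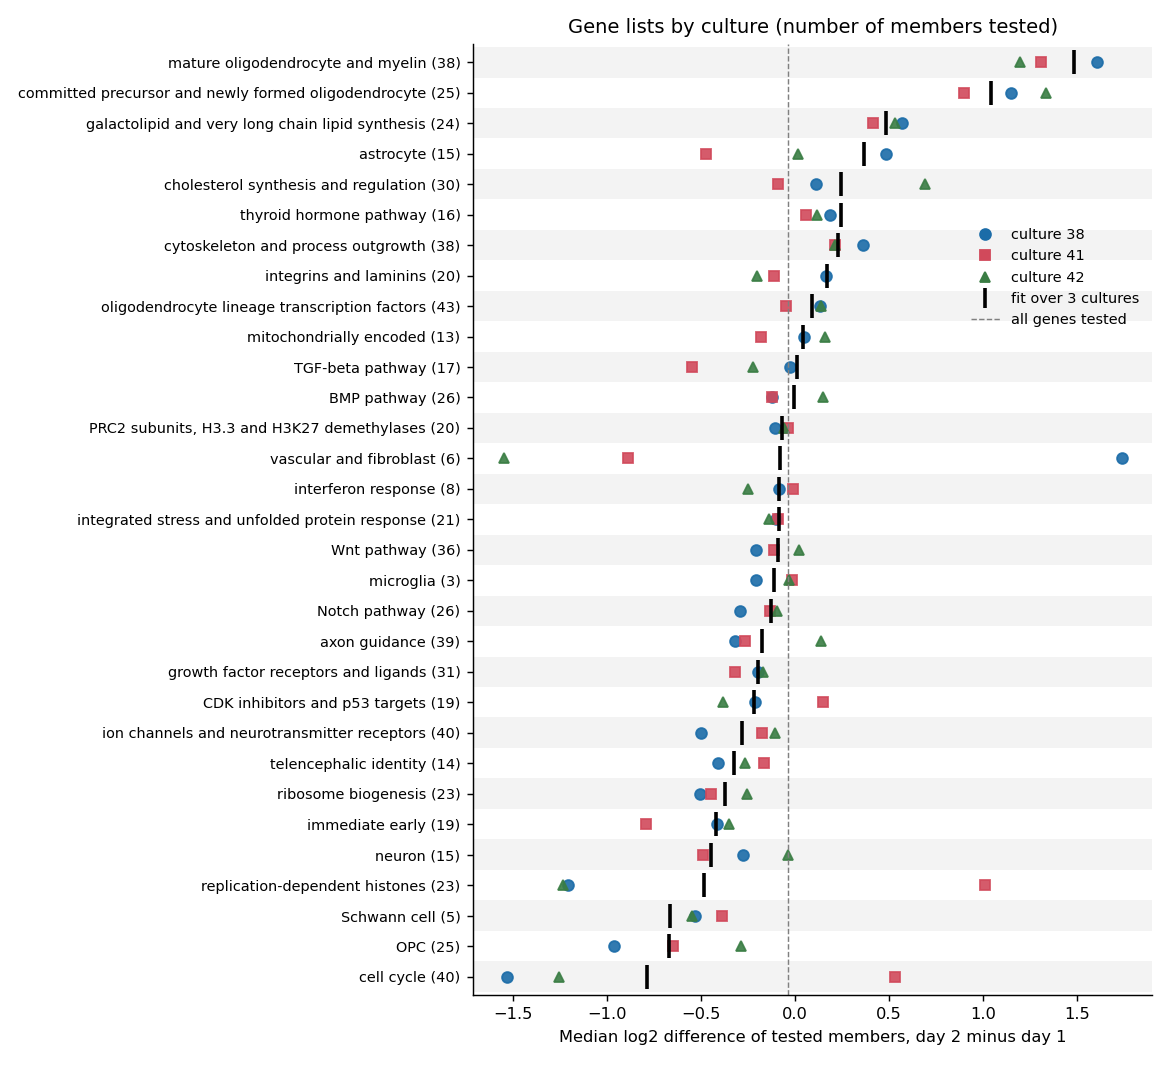
Median log2 difference between day 2 and day 1 over the tested members of each of the 31 gene lists, by culture, with the fit over the 3 cultures as a vertical bar and a dashed line at the median of all genes tested (−0.04). The myelin list lies at 1.19 or above in every culture, and the cell cycle and histone lists lie below 0 in cultures 38 and 42 and above 0 in culture 41.

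Set within the whole course, the step from day 1 to day 2 held both onsets and passing peaks. The means at day 0 (9 wells before differentiation) and day 5 (9 wells) are given as levels, with no test. Mbp averaged 18.2 CPM at day 0 and 13629 CPM at day 5, above the highest day 2 well (7865 CPM). Mobp averaged 5603 ± 1780 CPM (SD, n = 9) at day 5, far above the highest day 2 well. Casr was different, averaging 26.2 ± 7.17 CPM at day 5, inside the day 2 range.

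Lpar1 averaged 105 CPM at day 5, also inside the day 2 range. Tmem163 averaged 0.439 CPM at day 0 and 29.3 CPM at day 5, below every day 2 well. Gpr17 averaged 356 CPM at day 0 and 216 CPM at day 5, with days 1 and 2 both far higher. Map1b averaged 78.3 CPM at day 0 and 449 CPM at day 5, and its lowest day 2 well was at 820 CPM. Pdgfra averaged 1388 CPM at day 0 and 84.5 CPM at day 5. Postn averaged 0.649 CPM at day 5.

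**Figure D4:**
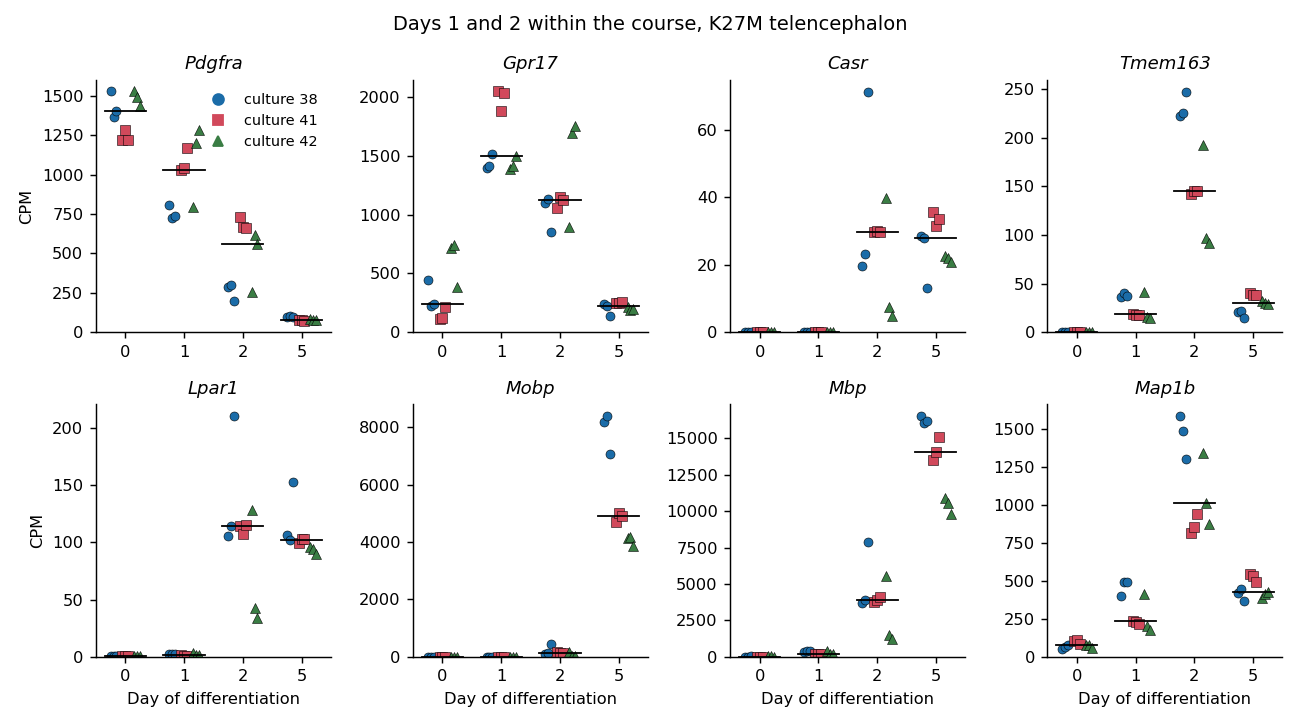
CPM of 8 genes in each well of K27M telencephalon at days 0, 1, 2 and 5, with symbols for the cultures and a horizontal line at the median of the wells. Mobp and Mbp are highest at day 5, Gpr17, Tmem163 and Map1b are lower at day 5 than at day 2, and Pdgfra is highest at day 0 and lowest at day 5.

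Whether the step from day 1 to day 2 was particular to K27M was tested against control telencephalon as the difference of the 2 changes. The comparisons share the K27M telencephalon wells. Of 17146 genes tested 417 had a more positive change in K27M (2.43%) and 327 a more negative one (1.91%). On culture sums no gene passed in either direction with edgeR, while 609 and 694 of 21670 had an unadjusted p under 0.05, and DESeq2 on the wells called 464 and 612. Without the 2 passage 1 wells of K27M culture 42 the counts were 746 and 789. In control telencephalon itself 4435 of 16273 genes were higher at day 2 and 4451 were lower. The myelin list had 31 of its genes higher and 3 lower there (median log2 change 1.59), and 2 of its members had a more positive change in K27M. In control cultures the cell cycle list had medians of −1.31, −1.39 and −0.92 in cultures 38, 41 and 42 of that genotype. The signalling lists had other counts in control telencephalon, with 16 BMP genes higher and 5 lower of 28. There 13 growth factor genes were higher and 5 lower of 30, and 10 TGF-beta genes higher and 3 lower of 18. Integrins and laminins had 12 higher and 5 lower of 21. The Wnt list had 11 higher and 9 lower of 35, and the Notch list 9 higher and 8 lower of 27. As differences of change, the BMP, Wnt and growth factor lists each had 4 members with a more negative change in K27M, and the TGF-beta list 2. In these 4 lists no member had a more positive change with edgeR or DESeq2, and at an unadjusted p under 0.05 1, 3, 2 and 0 members did. The difference between genotypes was not called for Mki67 (adjusted p = 0.285), Mbp (0.331) or Pdgfra (0.525).

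Cholesterol synthesis was the list with the most members above, 9 with a more positive change in K27M and 1 with a more negative one. The rise within K27M telencephalon was uneven, with 23 members called higher in culture 42, 4 in culture 38 and 2 in culture 41. In control telencephalon 8 of its genes rose and 13 fell, with a median of −0.08. Astrocyte genes rose in control telencephalon, 14 of 16 tested with a median of 1.38, and 2 of them had a more negative change in K27M. The 5 summed astrocyte markers went from a median of 236 CPM (109 to 505) to 1502 CPM (294 to 2306) in the control wells, against medians of 88.9 and 122 CPM in K27M telencephalon. Their part in the differences between genotypes was not tested. Passage also differed between the genotypes' wells.

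Casr had the largest difference, 4.38 ± 0.93 on the log2 scale (adjusted p = 0.00706), and it rose by 4.80 in control telencephalon as well. Its day 1 medians were 0.0397 CPM in K27M and 0.0588 CPM in control wells, and its day 1 means 0.0519 and 0.412 CPM. The highest control well at day 1 was at 1.27 CPM, so the difference has loosely measured starting levels. At day 2 the medians were 29.6 CPM in K27M and 5.51 CPM in control wells. Mog rose by 1.84 in control telencephalon, less than in K27M by 1.12 ± 0.31 (adjusted p = 0.0359). Its medians were 18.2 CPM at day 1 and 64.3 CPM at day 2 in control wells, above the 3.29 and 36.1 CPM of K27M, and the difference of change was near 0 in culture 38, 2.00 in culture 41 and 1.57 in culture 42. Gpr149, an orphan receptor, fell by 1.25 in control wells and was at 0.12 in K27M (difference 1.40 ± 0.26, adjusted p = 0.00277). The choline transporter Slc5a7 fell by 1.57 in control wells and was at −0.11 in K27M (difference 1.49). Shisal1 rose by 1.28 in K27M and was at 0.19 in control wells (difference 1.13, or 0.41, 0.19 and 2.63 in cultures 38, 41 and 42). Its medians at days 1 and 2 were 26.4 and 79.7 CPM in K27M, and 89.2 and 84.7 CPM in control wells.

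In the other direction stood 5 genes that rose in control telencephalon. Synpr, a synaptic vesicle protein, rose by 2.00 there and was at −0.25 in K27M (difference −2.22 ± 0.54, adjusted p = 0.0169). The calcium pump Atp2b4 rose by 1.39 there and was at −0.26 in K27M (difference −1.62). The cholesterol exporter Abca1 rose by 1.90 there and was at 0.33 in K27M (difference −1.54). Fbln5, an elastic fibre protein, rose by 1.24 there and fell by 0.64 in K27M (difference −1.84). Its medians at days 1 and 2 were 17.3 and 10.2 CPM in K27M, and 3.23 and 6.43 CPM in control telencephalon. Bmpr1b, a BMP receptor, rose by 0.92 there and fell by 0.62 in K27M (difference −1.51). On culture sums the adjusted p of these 10 differences lay between 0.723 and 0.914.

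Against K27M brainstem the same test asked whether the step depended on region. Of 17719 genes 1048 had a more positive change in telencephalon (5.91%) and 523 a more negative one (2.95%). On culture sums none of 22093 passed with edgeR, 910 and 685 had an unadjusted p under 0.05, and DESeq2 on the wells called 1015 and 788. The summed astrocyte markers of the brainstem wells had medians of 298 CPM at day 1 and 286 CPM at day 2. In K27M brainstem itself 3346 of 17097 genes were higher at day 2 and 3696 were lower. The myelin list had 30 genes higher and 2 lower there (median 1.22), and 7 of its members had a more positive change in telencephalon. Culture 41 of K27M brainstem, at passage 2 on both days, had a cell cycle median of 0.13, with 24 members higher and 16 lower. Its cultures 38 and 42 had medians of −0.96 and −1.53. Mki67 did not differ in its change between the regions at this threshold (adjusted p = 0.889).

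Casr again stood first, with a difference of 2.75 ± 0.71 (adjusted p = 0.0137) beside a rise of 6.28 in brainstem. The tight junction gene Cldn10 (difference 2.19), the transcription factor Maf (2.09), the engulfment receptor Megf10 (2.08) and the sulfotransferase Chst8 (2.03) rose in both regions. Their fold changes were larger in telencephalon, where their day 1 means, and that of Casr, were lower than in brainstem. Casr averaged 0.0519 and 0.369 CPM at day 1 in telencephalon and brainstem, and 28.4 and 30.1 CPM at day 2. Day 2 means in the same order were 7.17 and 7.45 CPM for Maf and 5.73 and 4.66 CPM for Chst8. For Cldn10 they were 5.30 and 3.48 CPM, and for Megf10 32.9 and 18.1 CPM. Egr1 had the most negative difference, −2.64 ± 0.65 (adjusted p = 0.0108), with −3.14, −5.70 and −0.39 in cultures 38, 41 and 42. Its day 1 medians were 41.9 CPM in telencephalon and 3.32 CPM in brainstem, and its day 2 medians 7.16 and 12.4 CPM. Of 20 tested immediate early genes 7 had a more negative change in telencephalon, against 2.95% of all genes, and none a more positive one. The integrin subunit Itga4 fell by 1.14 in telencephalon and was at 0.32 in brainstem (difference −1.44 ± 0.23, adjusted p = 0.000244). Plcd4, Adamtsl1 and the cadherin Cdh19 had differences of −1.40, −1.26 and −1.20. On culture sums the adjusted p of these 10 differences lay between 0.563 and 0.701. Region and the batch number given in the labels cannot be told apart as levels, and each change was taken within a culture.

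**Figure D5:**
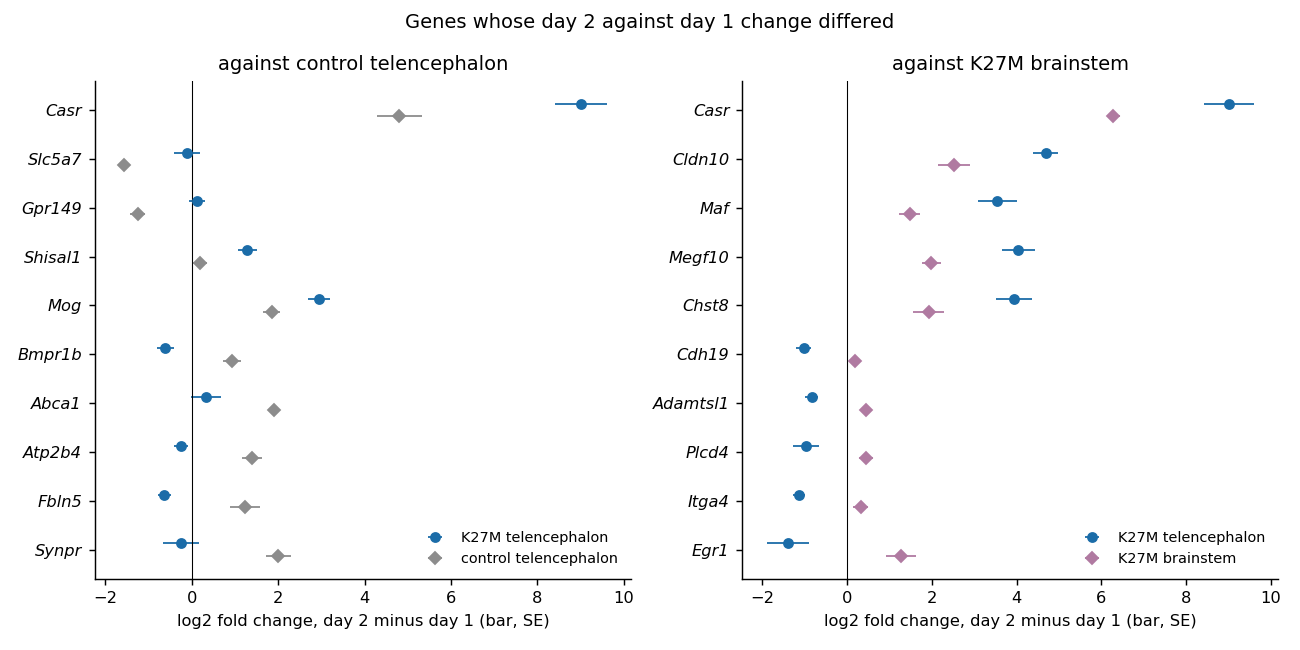
Log2 fold change between day 2 and day 1, with its SE as a bar, for the 10 genes named for a difference from control telencephalon (left) and from K27M brainstem (right), in each of the groups compared. Synpr, Atp2b4, Fbln5 and Bmpr1b lie on opposite sides of 0 in K27M and control telencephalon, and Casr rises in all 3 groups.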

How the data were processed

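RNA was extracted from the wells and sequenced as paired ends from a stranded total RNA kit. The authors quantified reads with Salmon (version 1.10.1 per the labels) against a mouse transcriptome of build mm10, with corrections for sequence and GC bias. The deposited files hold, per transcript, estimated counts (NumReads, not whole numbers), TPM and effective length, all made by the authors. Estimated counts were summed per gene through GENCODE M21, in which 139821 of 141084 transcripts matched, and rounded. The unmatched transcripts held 0.314 to 0.368% of a well's reads in the 18 wells. Gene names follow that annotation. CPM are estimated counts scaled with TMM over all 142 libraries.

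Day 2 was tested against day 1 with edgeR's quasi-likelihood test (edgeR 4.0.16, R 4.3.3) on the 18 wells, with TMM, filterByExpr, culture as block and Benjamini-Hochberg adjustment over all genes tested. A second fit used 24 sums of wells per telencephalon culture and day. Differences of change were tested in the same way on 36 wells (with control telencephalon) and 35 wells (with K27M brainstem), with culture line as block. Whether the change differed among cultures was tested with an F test on 2 degrees of freedom. The tests were tried on simulated counts first. Alternatives included DESeq2 1.42.0, which the authors used at a fold threshold of 1.1, other scaling and filters, effective-length offsets and passage as covariate.

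Genes were named when called on wells and on culture sums with the same sign in the 3 cultures. From these were taken, among protein-coding genes averaging 5 CPM or more on either day, the 8 with the highest and the 8 with the lowest fold change, up to 4 members of each list, 5 genes per direction for each difference of change, and a fixed set of lineage genes. Other genes were named after their values were seen. Some genes that this rule chose are not reported here. The libraries, lists and tests were chosen with earlier results of these data known. Counts cover reads, not molecules, so precision at low counts is at best that of counting.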

Additional observations from a re-analysis of the deposited data

Results flagged for a closer look

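In groups of 4 to 10 wells, a well whose gap to the rest exceeded Dixon's limit was sought in 292 sets of 9 values, of which chance gives about 1 in 20. It was found in 27, and 25 of these were the passage 1 wells of culture 42 (10 at day 1 and 15 at day 2). At day 1 these were Col18a1 at 26.5 CPM, Ltbp4 at 5.85, Dll1 at 78.7, Bmpr1b at 10.4, Map2 at 714, Id1 at 17.4 and Sparcl1 at 37.4, and the mean log2 CPM of the BMP (3.94), Wnt (3.45) and ion channel (4.06) lists. At day 2 they were Bmpr1b at 11.99 CPM, Gpr149 at 2.22, Abca1 at 93.2, Id1 at 31.0 and Sparcl1 at 148, and the mean log2 CPM of the thyroid hormone (4.64), Wnt (3.69), TGF-beta (4.23), growth factor (4.06), integrin and laminin (4.41), axon guidance (4.75), telencephalic identity (2.40), astrocyte (6.35), neuron (3.44) and vascular and fibroblast (3.28) lists. These are also the wells with high summed astrocyte markers, whose part was not tested. The other 2 were Ccnd1 at 110 CPM in a day 1 well of culture 38 and Acat2 at 430.0 CPM in a day 2 well of culture 42 at passage 3.

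A difference of change, K27M minus control telencephalon, passed for Casr (4.38 on the log2 scale), Slc5a7 (1.49), Gpr149 (1.40), Shisal1 (1.13), Mog (1.12), Bmpr1b (−1.51), Abca1 (−1.54), Atp2b4 (−1.62), Fbln5 (−1.84) and Synpr (−2.22). Abca1, Bmpr1b and Gpr149 are among the genes with a well far from the rest at day 2. K27M telencephalon minus K27M brainstem passed for Casr (2.75), Cldn10 (2.19), Maf (2.09), Megf10 (2.08), Chst8 (2.03), Cdh19 (−1.20), Adamtsl1 (−1.26), Plcd4 (−1.40), Itga4 (−1.44) and Egr1 (−2.64). Both tests use the same K27M telencephalon wells.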

How the results depend on the processing

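The count of genes higher and lower at day 2 stayed within 1.5 times under other scaling, filters, DESeq2, passage as covariate and effective-length offsets. It was 2681 and 2524 with DESeq2 at a fold of 1.1 and 2605 and 1169 on culture sums. Leaving out a culture gave 3052 to 4468 higher and 2889 to 4645 lower. Well numbers were not taken to pair the wells, since correlations of deviations were −0.08 to 0.10 in cultures 38 and 41 although 0.22 to 0.37 in culture 42, and the replicate block gave 4071 and 4302. The difference from control telencephalon was more fragile. It had 94 and 206 genes with no filter on low counts, 154 and 108 with passage as covariate, 127 more positive with the replicate block, 260 with DESeq2 size factors and 267 with effective-length offsets, 612 more negative with DESeq2, 746 and 789 without the passage 1 wells of culture 42 (chosen after seeing the data), and 0 and 0 on culture sums. Leaving out a culture number in both groups gave 159 to 643 and 138 to 667. The difference from K27M brainstem had 599 and 282 genes with no filter and 606 and 335 with the replicate block. It had 788 more negative with DESeq2 and 0 and 0 on culture sums. Without a culture number in both groups it had 328 to 1223 and 345 to 794. The cause was not tested. All 20 genes named for a difference of change lost their call on culture sums, 11 without culture 38, 9 without culture 41 and 3 without culture 42. Mki67 passed as lower with passage as covariate, without culture 41 and in the wells of matched passage, which hold none of culture 41. Gpr149, at 0.12 and not called, was at −0.78 with culture line and passage as block over all libraries and at −0.97 in the wells of matched passage, the latter added after seeing the data. Of the other planned comparisons of named genes 1649 kept direction and call, 99 lost the call and 7 gained it. Depth limits genes near 0 at day 1 such as Casr, whose fold rests on few reads.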
